A study of Mus musculus with 9 samples.

Results

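The genes described here are the enzymes that oxidize and conjugate drugs, steroids and lipids, with the receptors that control them, in Hepa1-6 cells exposed to pleuromutilin antibiotics. They were chosen by name alone. Among protein-coding genes of the count table, those named as a cytochrome P450 (Cyp), a UDP-glucuronosyltransferase (Ugt) or a cytosolic sulfotransferase (Sult) were taken, together with the receptors Ahr, Nr1i2 (PXR) and Nr1i3 (CAR) and the P450 reductase Por. The rule found 145 members among 56748 genes, namely 99 P450s, 21 glucuronosyltransferases, 21 sulfotransferases and the 4 receptor and reductase genes. The sterol 14-demethylase Cyp51 falls outside it, because its symbol lacks the letter the rule requires.

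Hepa1-6 is a mouse hepatoma cell line. RNA-Seq libraries were made from 3 groups of 3, a control, cells given 37 µg/mL Lefamulin and cells given 37 µg/mL Tiamulin, each drug for 2 days. The sample labels call the control untreated, whereas the methods of the study describe a vehicle. All 9 libraries are of a single line grown in DMEM with serum and penicillin-streptomycin, so every group carried those antibiotics too. Nothing states that the 3 libraries of a group came from separate cultures, and the p-values below measure the spread between these libraries, which may be technical. Lefamulin, approved for human use, and tiamulin, a veterinary drug, share the pleuromutilin core and differ in the side chain joined to it. The doses matched by mass and not necessarily by moles.

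P450s are haem enzymes that insert oxygen into lipophilic molecules. Those in the endoplasmic reticulum receive electrons from POR, and those in mitochondria from adrenodoxin. Families Cyp1 to Cyp3 are best known for drug and pollutant oxidation, Cyp4 for fatty acids and eicosanoids, and Cyp7, Cyp8, Cyp27, Cyp39 and Cyp46 for sterols and bile acids. Glucuronosyltransferases and sulfotransferases then attach a sugar acid or a sulfate group, which makes the products easier to excrete. In hepatocytes AHR, CAR and PXR are the ligand-responsive regulators of many of these genes, and hepatoma lines in culture are known to keep only part of the set.

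Total counts per library lay between 15568887 and 18008105, and a count of 3, the floor used here for a gene not detected, equals 0.0570 CPM over the pooled controls, CPM being the reads of a gene scaled to the size of its library. The library tiamulin 2 stood apart. Over 11084 genes, its counts differed from those of tiamulin 1 and tiamulin 3 by 22.1 and 25.3 times the sampling variance, against 3.08 to 9.03 for the other pairs within groups. Its deviations from the group mean followed the GC content of genes (Spearman's rho 0.673 across 11016 genes), and those of tiamulin 1 and tiamulin 3 from the same mean ran the opposite way (−0.505 and −0.549). Among the controls, control 1 and control 2 also deviated with GC content, in opposite directions (0.466 and −0.466). Values without tiamulin 2, and from a fit with per-library offsets for GC content and length of genes, are given beside the members whose call they change. The hepatocyte markers Alb, Afp, Trf and Fgb were present in the controls at 207, 284, 166 and 32.2 FPKM (reads scaled to gene length as well as library size, the unit for comparing genes), while Ttr and Apoa1 were at most 0.215 FPKM and Serpina1a was at 0 in every library. Of the 8 hepatocyte markers, 5 were tested. Afp (−0.81), Alb (−0.50), Fgb (−0.42) and Apob (−0.39) were lower under tiamulin on the log2 scale, and under lefamulin Alb was lower (−0.24) and Trf higher (0.27), by the test described below. The list summed to 669 to 741 FPKM in controls, 653 to 698 under lefamulin and 505 to 535 under tiamulin.

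Most of the 145 members had few reads or none. In all 9 libraries together, 68 members had no read and 29 had 1 to 9 reads. Another 20 had at least 10 reads yet did not pass the filter on low counts, which asked for about 0.607 CPM in at least 3 libraries. The remaining 28 members were tested, and 18 of these had a mean control level above 1 FPKM, 5 of them above 10. In 6 of the 28, Cyp21a1, Cyp27b1, Cyp2c23, Cyp2j6, Nr1i3 and Sult3a2, the controls did not all reach the filter's cutoff, so these could pass through a treated group. Among the 117 members not tested, no library had more than 11 reads on any gene. Of the P450s 20 of 99 were tested, of the glucuronosyltransferases 2 of 21, of the sulfotransferases 3 of 21, and of the receptor and reductase genes 3 of 4.

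Several P450s well known from mouse liver were among the members not tested, and these were picked after their values were seen. Cyp8b1, the bile acid 12-hydroxylase, Cyp2b10, the classical CAR target, and Cyp3a11, the main hepatic Cyp3a enzyme, had 0 reads in 9 libraries. Cyp2e1, which oxidizes ethanol, had 4 reads in all. Cyp1a2, the close relative of Cyp1a1, had 13, and Cyp7a1, the rate-limiting enzyme of classical bile acid synthesis, had 23, spread over the 3 groups as 0, 5 and 4 in controls, 5, 2 and 0 under lefamulin and 3, 0 and 4 with tiamulin. These reads give no comparison between groups. A count of 0 limits the level only to below the floor and does not show absence.

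**Figure D1:**
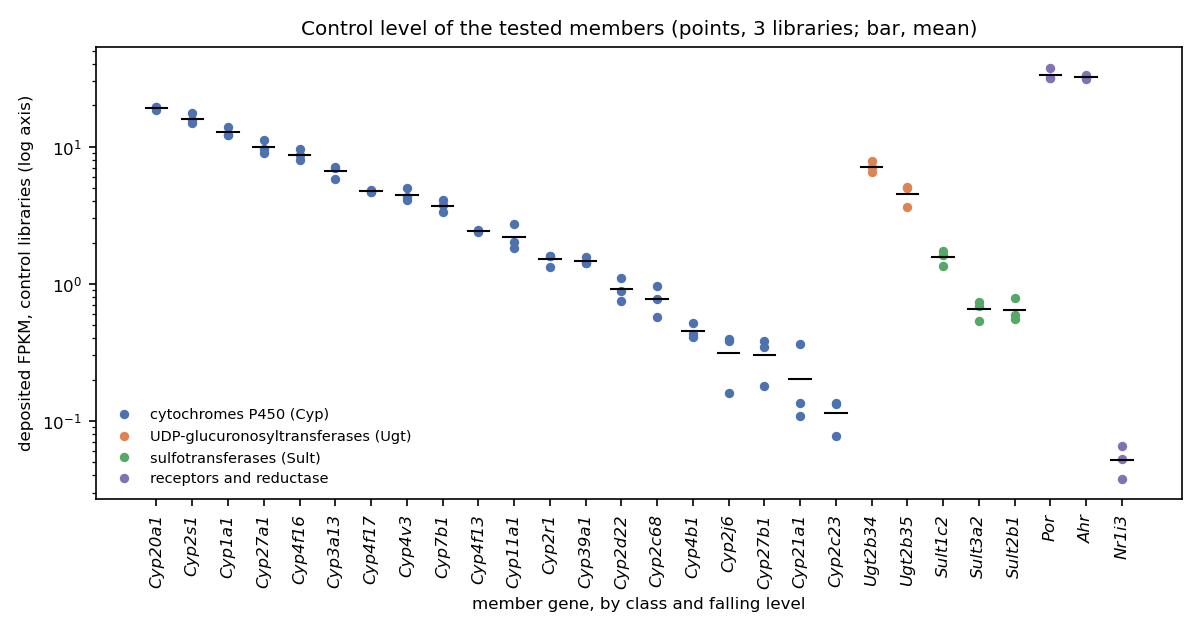
Control level of the 28 tested members, ordered by class and falling mean. The vertical axis is deposited FPKM on a log scale, points are the 3 control libraries and bars their mean. Por and Ahr lie above all tested P450s, and Cyp20a1 leads the P450s at 19.2 FPKM.

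In controls the 99 P450s summed to 97.6 ± 2.04 FPKM (SD, n = 3). Cyp20a1, an orphan P450 without an established substrate, held 19.6% of that sum, and Cyp2s1, an enzyme expressed mostly outside the liver, held 16.4%. Cyp1a1, which oxidizes polycyclic aromatic hydrocarbons, held 13.1%, and Cyp27a1, the mitochondrial sterol 27-hydroxylase, 10.2%. Cyp4f16 at 8.96% and Cyp3a13 at 6.79% came next. The order among neighbours is loose, since the control FPKM of Cyp27a1 (9.94 ± 1.06) and of Cyp4f16 (8.75 ± 0.769) differed by less than the sum of their SDs, and the same held for Cyp4f17 (4.72 ± 0.116) and Cyp4v3 (4.46 ± 0.487).

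Within families the sum usually rested on a single gene. Cyp1a1 made up 99.6% of its family in controls, Cyp3a13 99.5%, Cyp7b1 99.0%, Cyp27a1 97.1% and Cyp2s1 79.9%, whereas Cyp4f16 made up 41.8% of family Cyp4. Lower down, the steroid side-chain cleavage enzyme Cyp11a1 stood at 2.20 ± 0.469 FPKM and the oxysterol hydroxylase Cyp39a1 at 1.47 ± 0.0845. The steroid 21-hydroxylase Cyp21a1 stood at 0.202 ± 0.140. Cyp17a1, Cyp24a1, Cyp26c1 and Cyp46a1, the leaders of 4 further families, stayed at or below 0.0325 FPKM, and Cyp19a1 and Cyp8b1 were at 0 in controls.

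Among conjugating enzymes Ugt2b34 led at 7.14 ± 0.663 FPKM, followed by Ugt2b35 at 4.55 ± 0.786. The 9 Ugt1a genes, which include the bilirubin-conjugating Ugt1a1, summed to 0.0932 FPKM, and their reads cannot be assigned with confidence because 50.3% to 82.7% of the exon bases of each are shared within the locus. Ugt1a9 had the highest mean of them at 0.0345 ± 0.0299 FPKM, an order that is loose beside Ugt1a6b at 0.0319 ± 0.0370, and Ugt3a1 was at 0. The sulfotransferases summed to 3.26 ± 0.589 FPKM, led by Sult1c2 at 1.58 ± 0.201, with Sult3a2 at 0.655 ± 0.106 and Sult2b1, the cholesterol sulfotransferase, at 0.645 ± 0.123. Sult6b1 reached 0.116 FPKM, Sult5a1 0.0171, and Sult4a1 0.

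Under each drug Cyp1a1, Cyp3a13 and Cyp39a1 were higher than in controls and Cyp2s1 was lower. With lefamulin Ugt2b34 and Cyp21a1 were higher as well, and with tiamulin Cyp27a1, Cyp4f13, Cyp4f16 and Cyp4f17 were higher and Cyp7b1 was lower. The fold of control among these genes ran from 0.659 for Cyp2s1 to 3.25 for Cyp21a1 under lefamulin, and from 0.628 for Cyp7b1 to 1.72 for Cyp3a13 under tiamulin. To test this, all 14510 genes with enough reads were fitted together with edgeR's quasi-likelihood test, and a gene was called at a Benjamini-Hochberg adjusted p below 0.05 over all of them. Fold changes are log2(fold change), written with the standard error (SE). Under lefamulin 6 of the 28 tested members were called (21.4%), 5 higher and 1 lower, beside 13.1% of all genes tested (7.09% higher and 6% lower). With tiamulin 9 were called (32.1%), 7 higher and 2 lower, beside 16.4% of all genes (9.08% higher and 7.34% lower). The share of all genes called was itself sensitive to the fit. With the GC and length offsets it was 23.9% under lefamulin, beside 25.0% of the members, and 27.2% under tiamulin, beside 42.9%, and over the fits that left out a library it ran from 6.69% to 24.9% under lefamulin and from 9.85% to 23.1% under tiamulin. The median member moved by 0.09 under lefamulin and 0.21 under tiamulin, and the median of all tested genes by −0.00183 and 0.00337. The member medians include the 6 members whose controls did not all reach the filter's cutoff, each of which needed treated libraries to pass. So do the shares called, where Cyp21a1 was the only such member called. Medians without these members were not taken. Each drug was compared with the same 3 control libraries, so a control library that was high or low moves both comparisons alike. In these bulk samples fewer cells of a kind and less RNA per cell cannot be told apart.

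**Figure D2:**
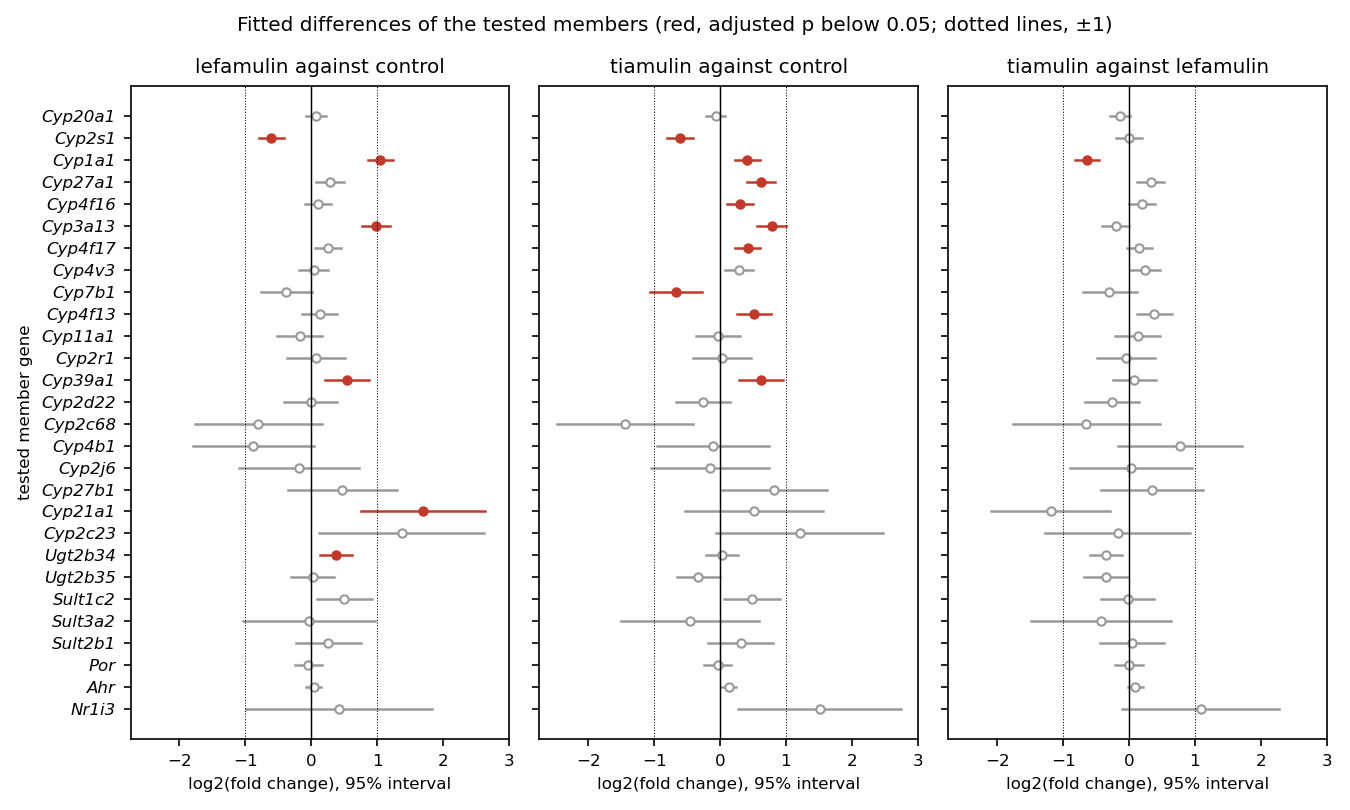
Fitted log2(fold change) of the 28 tested members with its 95% interval, for lefamulin against control, tiamulin against control and tiamulin against lefamulin. Filled red points passed the adjusted threshold, open grey points did not, and dotted lines mark a log2(fold change) of −1 and 1. Between the drugs Cyp1a1 is the only member that passed.

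Neither the receptor genes nor the reductase passed the test under either drug. Ahr, which encodes the aryl hydrocarbon receptor, had 195, 197 and 207 CPM in controls, 210, 201 and 203 under lefamulin and 228, 213 and 215 with tiamulin. Against control, Ahr differed by 0.04 on the log2 scale under lefamulin (95% interval −0.0788 to 0.152) and 0.13 under tiamulin (0.0170 to 0.247, adjusted p = 0.113). Without tiamulin 2 the adjusted p of Ahr under tiamulin became 0.0196, and with the GC and length offsets 0.0275. Por, which hands electrons to the microsomal P450s, had 2644, 2185 and 2284 reads in controls, 2152, 2140 and 2111 under lefamulin and 2005, 2501 and 2021 with tiamulin. The library tiamulin 2 was the highest of its group for Por. The interval of its change ran from −0.252 to 0.169 under lefamulin and from −0.247 to 0.174 under tiamulin.

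The other receptors were scarce. Nr1i2, which encodes PXR, had 0, 3 and 2 reads in controls, 6, 0 and 2 under lefamulin and 0, 0 and 1 with tiamulin, too few to test. Nr1i3, which encodes CAR, had 5, 4 and 3 reads in controls, 10, 3 and 2 under lefamulin and 11, 12 and 10 with tiamulin. All tiamulin libraries lay above all controls, yet the log2(fold change) of 1.51 ± 0.578 did not pass (adjusted p = 0.0912). None of its controls reached the filter's cutoff, so Nr1i3 entered the test only through treated libraries. Of its exon bases 74.9% also belong to the neighbouring gene Tomm40l, so these reads could come from either gene unless strand was used in counting.

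Under lefamulin Cyp1a1 and Cyp3a13, of the drug-oxidizing families, had the largest changes among members above 1 FPKM in controls. In family Cyp1, Cyp1a1 stood at 34.1, 34.2 and 39.2 CPM in controls, 74.1, 74.1 and 74.2 CPM under lefamulin and 46.7, 53.8 and 43.0 CPM under tiamulin. The groups did not overlap, with lefamulin highest and tiamulin between. Against control the log2(fold change) was 1.05 ± 0.0873 under lefamulin (adjusted p = 3.24e-06) and 0.42 ± 0.0882 under tiamulin (adjusted p = 0.00486). The family's other members, Cyp1a2 and Cyp1b1, had at most 8 reads in a library.

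In family Cyp3, Cyp3a13, a drug-oxidizing enzyme of gut and liver, stood at 17.1, 20.8 and 21.2 CPM in controls, 38.5, 39.5 and 39.0 CPM under lefamulin and 34.0, 30.3 and 37.5 CPM under tiamulin. Every treated library exceeded every control, with a log2(fold change) of 0.98 ± 0.10 under lefamulin (adjusted p = 1.93e-05) and 0.78 ± 0.101 under tiamulin (adjusted p = 1.11e-04). The other 8 Cyp3a members had at most 4 reads each over all libraries, so the family's summed FPKM of 6.66 in controls, 13.2 under lefamulin and 11.4 under tiamulin is nearly all Cyp3a13.

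In family Cyp2, the largest with 49 members, 1 of 6 tested genes was called under each drug, beside 13.1% and 16.4% of all genes tested, and it was lower. This gene, Cyp2s1, stood at 86.7, 74.4 and 77.5 CPM in controls, 56.0, 51.1 and 50.1 CPM under lefamulin and 46.9, 59.4 and 50.6 CPM under tiamulin. All 6 treated libraries were below all controls, and the log2(fold change) was −0.60 ± 0.0906 under lefamulin (adjusted p = 5.45e-04) and −0.61 ± 0.0906 under tiamulin (adjusted p = 3.89e-04). The family sum went from 20.1 ± 1.48 FPKM in controls to 14.8 ± 0.554 under lefamulin and 14.2 ± 0.782 under tiamulin. Of the other 5 tested Cyp2 genes none was called under either drug. Cyp2c68 had 29, 17 and 24 reads in controls, 13, 4 and 20 under lefamulin and 10, 6 and 8 with tiamulin, with a log2(fold change) of −1.45 ± 0.481 under tiamulin that did not pass (adjusted p = 0.0543). It passed without lefamulin 2 (adjusted p = 0.0259), with the GC and length offsets (0.0284), without a filter on low counts (0.0242) and with the tiamulin and control libraries fitted alone (0.0323). Cyp2c23, an arachidonic acid epoxygenase, had 5, 5 and 3 reads in controls, 9, 17 and 6 under lefamulin and 11, 4 and 14 with tiamulin. A log2(fold change) of 1.38 ± 0.585 under lefamulin did not pass (adjusted p = 0.142), and Cyp2c23 had no control at the filter's cutoff.

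The promoters of Cyp1a1, Cyp3a13 and Cyp2s1 are shown because these abundant P450s passed under each drug, the first pair higher and the last lower. They are the 250 bases before the transcript start in RefSeq on GRCm38.p6, read on the gene's strand. Matching by symbol found 114 of the 145 members in that table. Capitals mark GCGTG, the core bound by AHR with ARNT, searched on both strands, and TATAA, searched on the gene's strand. The Cyp1a1 window is chr9:57697363-57697612 on the plus strand, that of Cyp3a13 is chr5:137921620-137921869 and that of Cyp2s1 is chr7:25816526-25816775, both on the minus strand.
Cyp1a1: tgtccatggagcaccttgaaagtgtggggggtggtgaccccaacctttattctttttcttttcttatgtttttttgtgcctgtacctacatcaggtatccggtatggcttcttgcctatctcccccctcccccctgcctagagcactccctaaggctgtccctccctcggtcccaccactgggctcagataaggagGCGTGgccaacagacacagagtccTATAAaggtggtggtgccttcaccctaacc
Cyp3a13: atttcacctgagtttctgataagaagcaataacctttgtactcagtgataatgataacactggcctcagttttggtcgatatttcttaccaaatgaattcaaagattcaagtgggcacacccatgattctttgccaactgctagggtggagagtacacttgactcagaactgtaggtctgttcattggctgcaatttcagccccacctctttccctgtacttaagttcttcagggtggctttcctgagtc
Cyp2s1: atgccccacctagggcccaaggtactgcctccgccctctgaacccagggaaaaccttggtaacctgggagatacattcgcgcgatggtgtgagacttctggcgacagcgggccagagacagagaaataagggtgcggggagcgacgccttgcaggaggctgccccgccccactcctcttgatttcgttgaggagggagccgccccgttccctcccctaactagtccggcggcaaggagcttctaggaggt

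Cyp1a1 held GCGTG at 54 bases and TATAA at 30 bases before the start, without overlap. Neither motif occurred in the windows of Cyp3a13 and Cyp2s1, and neither did AGGTCA or AGTTCA, half-sites of nuclear receptors searched on both strands, in any of the 3. GCGTG occurs in 28.2% of 32851 promoter windows of that length, TATAA in 16%, AGGTCA in 14.0% and AGTTCA in 11.8%. A match describes the letters only, and more distant elements were not searched. Base composition differed, with 53.6% GC for Cyp1a1, 42.8% for Cyp3a13 and 62.0% for Cyp2s1.

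**Figure D3:**
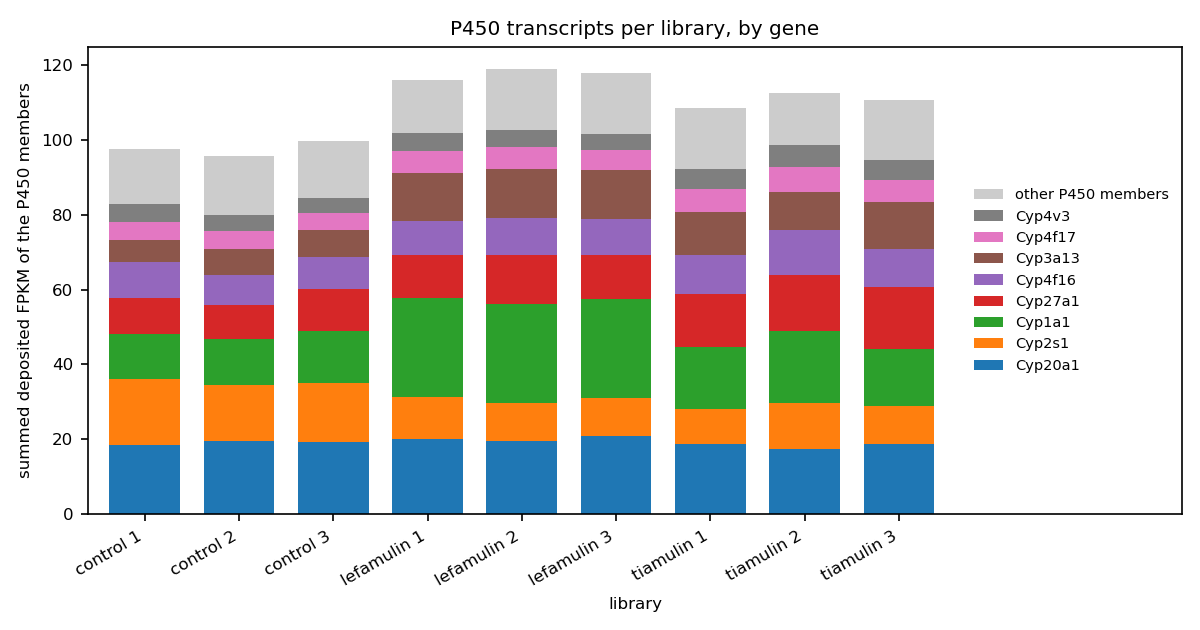
Summed deposited FPKM of the 99 P450 members in each of the 9 libraries, as bars from 0, divided by gene. The sums lay between 95.6 and 99.7 in controls, 116 and 119 under lefamulin and 108 and 112 with tiamulin. Under each drug the Cyp1a1 part was wider, most so under lefamulin, and the Cyp2s1 part was narrower.

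Summed over all P450s, the level was higher in every treated library than in every control. The sum was 97.6 ± 2.04 FPKM in controls, 118 ± 1.46 under lefamulin and 111 ± 2.03 under tiamulin, given without a test. Under lefamulin Cyp1a1 became the leading P450, with 22.5% of the sum against 13.1% in controls, and Cyp2s1 held 8.98% against 16.4%. With tiamulin Cyp20a1 held 16.5% and Cyp1a1 15.4%, an order that was loose too, since Cyp1a1 exceeded Cyp20a1 in tiamulin 2 (19.3 against 17.5 FPKM). Of the others Cyp27a1 held 13.8%, Cyp3a13 10.3% and Cyp2s1 9.52%. Cyp20a1 itself stood at 42.5, 45.0 and 44.6 CPM in controls, 46.4, 44.6 and 47.9 under lefamulin and 43.1, 40.0 and 42.9 with tiamulin, and it was not called in any comparison.

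Family Cyp4, which oxidizes the tail of fatty acids and eicosanoids, was called at 3 of its 5 tested genes under tiamulin, beside 16.4% of all genes tested, and at none under lefamulin, beside 13.1%. All 3 are Cyp4f genes, and none of them was called between the drugs. Cyp4f13 stood at 10.6, 11.0 and 10.8 CPM in controls, 11.2, 13.3 and 11.0 under lefamulin and 16, 13.2 and 17.2 with tiamulin. The tiamulin libraries lay above all controls, and lefamulin overlapped with each of the other groups. Under tiamulin its log2(fold change) was 0.52 ± 0.122 (adjusted p = 0.00961), and with limma on log2(FPKM + 1) without a filter the call was lost (adjusted p = 0.0676).

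Cyp4f17 stood at 15.6, 15.0 and 14.9 CPM in controls, 18.7, 18.6 and 17.2 under lefamulin and 20.3, 21.4 and 19.1 with tiamulin. Every treated library was above the controls, with a log2(fold change) of 0.42 ± 0.0903 under tiamulin (adjusted p = 0.00554) and 0.26 under lefamulin, where it did not pass (adjusted p = 0.0762). The lefamulin comparison of Cyp4f17 passed without tiamulin 2 (adjusted p = 0.0435), with the lefamulin and control libraries fitted alone (0.0488) and with limma on log2(FPKM + 1) or log2(FPKM + 0.1) (0.0465 and 0.0447). Cyp4f16 stood at 29.5, 24.8 and 26.6 CPM in controls, 27.5, 30.4 and 29.2 under lefamulin and 31.9, 36.8 and 31.2 with tiamulin. The change of 0.30 ± 0.0935 under tiamulin passed (adjusted p = 0.0388). That call was lost without any of 7 libraries, control 2, control 3, lefamulin 1, lefamulin 2, lefamulin 3, tiamulin 1 or tiamulin 2, with adjusted p between 0.0553 and 0.160. It was also lost with the tiamulin and control libraries fitted alone (0.0869) and with limma on log2(FPKM + 1) with and without a filter (0.0501 and 0.144), and 8 of 19 alternatives kept it. Taking tiamulin minus lefamulin, the value was 0.20 for Cyp4f16 (95% interval −0.00322 to 0.397) and 0.16 for Cyp4f17 (−0.0337 to 0.350).

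The series holds 9 Cyp4f members, 8 of them on chromosome 17 and Cyp4f18 on chromosome 8. The 3 tested genes span 441 kb of chromosome 17, from 32725024 at the start of Cyp4f17 to 33166376 at the end of Cyp4f13, in the positions the authors deposited. Cyp4f37, Cyp4f40, Cyp4f15 and Cyp4f14 lie between them with at most 4 reads each over all libraries. How reads shared by these similar genes were assigned is not stated, so the split among Cyp4f genes is uncertain. Of the other tested family members Cyp4v3 stood at 17.1 ± 1.86 CPM in controls, 17.6 ± 1.29 under lefamulin and 20.9 ± 0.708 under tiamulin (adjusted p = 0.0623 under tiamulin, 0.0327 without control 1 and 0.0273 with the GC and length offsets). Cyp4b1 had 17, 16 and 21 reads in controls and 5, 8 and 14 under lefamulin, and its log2(fold change) of −0.88 ± 0.429 did not pass (adjusted p = 0.203).

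Among the P450s of sterol and bile acid metabolism, called genes moved in both directions under tiamulin, while under lefamulin only Cyp39a1 was called, and it was higher. Cyp27a1, which opens the alternative bile acid pathway, stood at 21.0, 19.8 and 24.3 CPM in controls, 25.1, 28.5 and 26.0 under lefamulin and 31.2, 32.6 and 36.2 with tiamulin. The 3 groups did not overlap. For tiamulin the log2(fold change) was 0.62 ± 0.0985 (adjusted p = 6.27e-04). Under lefamulin it was 0.29 ± 0.0997 and did not pass (adjusted p = 0.0699), although it passed without tiamulin 2 (adjusted p = 0.0199), with the GC and length offsets (0.0425) and with the lefamulin and control libraries fitted alone (0.0234).

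Cyp39a1, which hydroxylates 24-hydroxycholesterol, stood at 4.33, 4.36 and 4.80 CPM in controls, 5.88, 7.71 and 6.07 under lefamulin and 7.36, 6.31 and 7.12 with tiamulin. Every treated library was above the controls, by a log2(fold change) of 0.54 ± 0.156 under lefamulin (adjusted p = 0.0350) and 0.62 ± 0.155 under tiamulin (adjusted p = 0.0133). The lefamulin call was lost without any of the 3 controls, lefamulin 2 or lefamulin 3, with adjusted p between 0.0596 and 0.171, and also with DESeq2 (0.0546) and limma on log2(FPKM + 1) without a filter (0.113). The tiamulin call was kept whichever library was left out and lost with that limma fit (0.0536).

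Cyp7b1, which hydroxylates 25- and 27-hydroxycholesterol and acts after Cyp27a1 in the alternative pathway, was lower under tiamulin. It stood at 7.22, 8.85 and 8.15 CPM in controls, 5.50, 5.60 and 7.54 under lefamulin and 6.39, 4.81 and 4.0 with tiamulin. The tiamulin libraries were below all controls, and lefamulin 3 lay among the controls. Cyp7b1 changed by −0.67 ± 0.186 on the log2 scale under tiamulin (adjusted p = 0.0228) and by −0.38 ± 0.182 under lefamulin (adjusted p = 0.200). The tiamulin call was lost without control 2, control 3 or tiamulin 3 (adjusted p = 0.0903, 0.0745 and 0.0846) and with limma on log2(FPKM + 1) without a filter (0.113).

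Of the steroid hormone P450s Cyp11a1 and Cyp21a1 were tested, and Cyp21a1 was called under lefamulin, beside 13.1% of all genes tested. It had 5, 4 and 14 reads in controls, 17, 25 and 28 under lefamulin and 11, 8 and 12 with tiamulin. The log2(fold change) of 1.70 ± 0.439 under lefamulin was the highest of the 28 members and rests on few reads, with controls that did not all reach the filter's cutoff (adjusted p = 0.0198). Without control 3, its highest control, the log2(fold change) became 2.43. Without control 1, control 2, lefamulin 2 or lefamulin 3 it was not called (adjusted p = 0.0900, 0.0801, 0.0716 and 0.0857), nor with limma on log2(FPKM + 1) without a filter (0.0753). Cyp11a1 had 169, 226 and 159 reads in controls, 127, 179 and 151 under lefamulin and 155, 167 and 189 with tiamulin, and did not pass in any comparison.

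**Figure D4:**
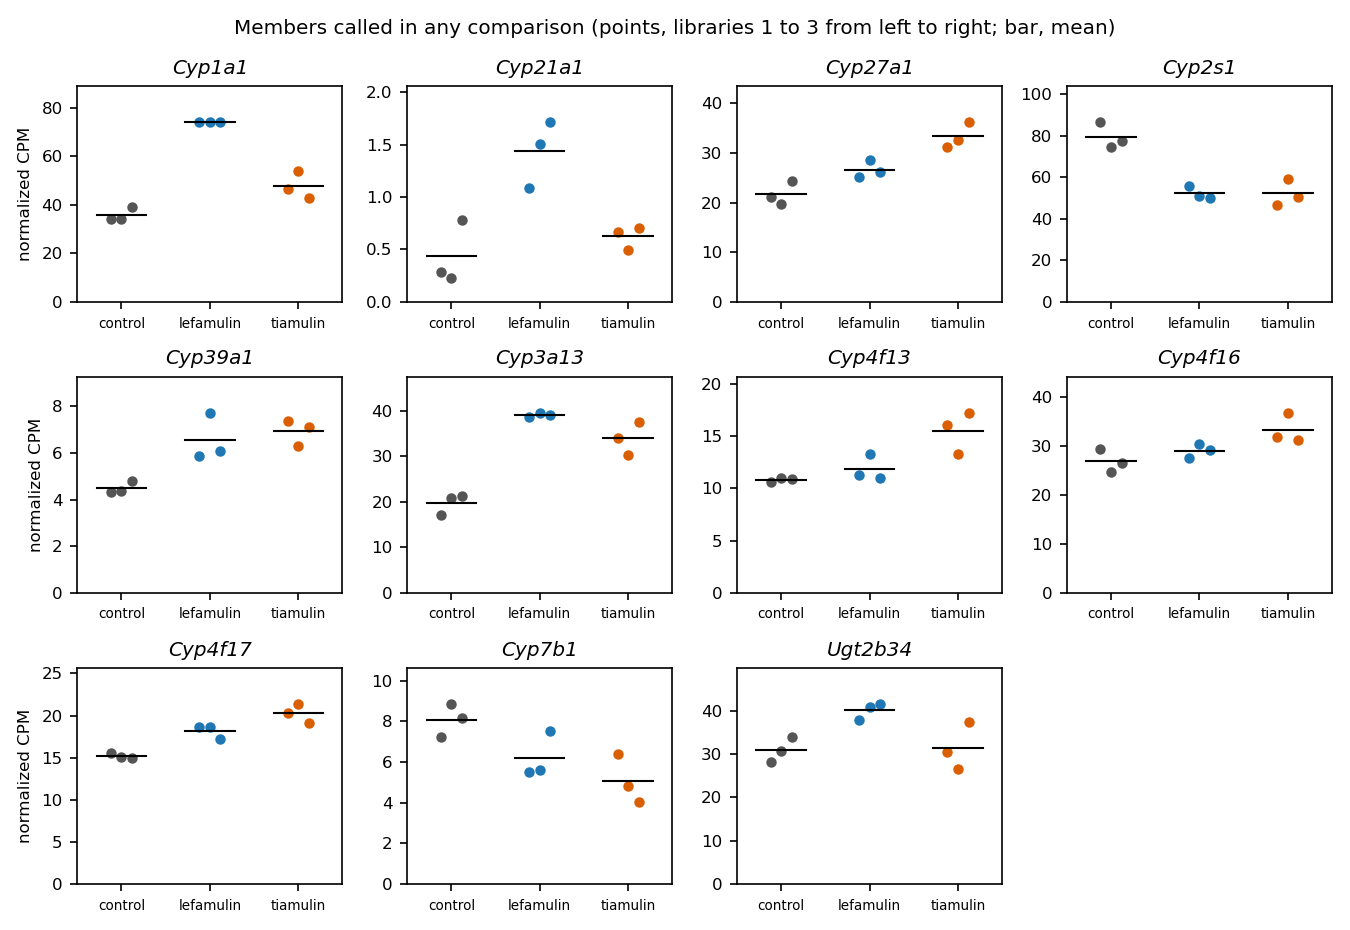
Normalized CPM of the 11 members called in any comparison, on axes from 0, with the libraries 1 to 3 of each group as points from left to right and the group mean as a bar. Cyp1a1 shows 3 separate groups, Cyp3a13 and Cyp39a1 are higher and Cyp2s1 lower in every treated library, and Cyp7b1 and the Cyp4f genes separate from control under tiamulin.

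Of the 5 conjugation genes tested, Ugt2b34 was called under lefamulin and none under tiamulin, beside 13.1% and 16.4% of all genes tested. Ugt2b34 stood at 28.2, 30.7 and 34.0 CPM in controls, 37.8, 40.9 and 41.6 under lefamulin and 30.4, 26.6 and 37.4 with tiamulin. The lefamulin libraries were above all others, with tiamulin 3 the nearest, and tiamulin overlapped with control. Ugt2b34 rose by 0.37 ± 0.113 on the log2 scale under lefamulin (adjusted p = 0.0425), and under tiamulin the value was 0.02 ± 0.114. The lefamulin call was lost without any one of 7 libraries, the 3 controls, the 3 lefamulin libraries and tiamulin 1, with adjusted p between 0.0526 and 0.166. Limma on log2(FPKM + 1), on log2(FPKM + 0.1) and without a filter lost it too (0.0800, 0.0805 and 0.209). Ugt2b35 stood at 15.4 ± 2.66, 15.6 ± 2.98 and 12.2 ± 1.23 CPM in control, lefamulin and tiamulin libraries and was not called.

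No sulfotransferase passed the adjusted threshold under either drug in this fit. Sult1c2 stood at 3.23, 3.03 and 2.51 CPM in controls, 4.66, 3.55 and 4.23 under lefamulin and 3.47, 4.75 and 4.06 with tiamulin. All treated libraries were above the controls, with log2(fold change) of 0.50 ± 0.196 (adjusted p = 0.109) and 0.48 ± 0.196 (adjusted p = 0.111). The intervals of Sult2b1 and Sult3a2 included 0 under each drug, and that of Sult3a2 under lefamulin ran from −1.03 to 0.975 at 6 to 12 reads per library. Such an interval is not a limit of detection, and larger changes could also have gone uncalled at these counts.

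Of the members called under lefamulin, Cyp1a1 and Cyp21a1 also passed the study's limit of an absolute log2(fold change) above 1, 2 of 28 (7.14%) beside 1.51% of all genes tested, and the lower bound of the interval was 0.862 and 0.760, below that limit. Cyp21a1 needed treated libraries to pass the filter, and with at least 10 counts in every library Cyp1a1 alone passed both limits. Under tiamulin 0 members passed both limits, beside 1.78% of all genes. At an unadjusted p below 0.05, 2 members exceeded the fold limit under tiamulin, Cyp2c68 and Nr1i3, beside 2.78% of all genes tested, and Nr1i3 was tested only through its treated libraries. For tiamulin DESeq2 also gave 0 members past both limits at its adjusted p. Cyp2c68 passed both without a filter, without lefamulin 2, with the GC and length offsets, with a block for the replicate number and with tiamulin and control fitted alone.

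Lefamulin and tiamulin were then compared directly, a single pair of compounds at the same mass dose and time. Of the 28 members 1 was called (3.57%), beside 4.9% of all genes tested (2.85% higher and 2.05% lower under tiamulin). That member was Cyp1a1, which was lower under tiamulin by a log2(fold change) of −0.63 ± 0.0861 (95% interval −0.817 to −0.448, adjusted p = 0.00107). The call held whichever library was left out. For Cyp2s1 the difference was −0.00400 with an interval from −0.201 to 0.193, and for Cyp39a1 0.08 with an interval from −0.243 to 0.404. For Cyp3a13 it was −0.20, from −0.409 to 0.00777. These intervals leave differences of that size possible.

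Several members called under a single drug were not shown to differ between the drugs. Taking tiamulin minus lefamulin, the value of Cyp27a1 was 0.33 (interval 0.118 to 0.537, adjusted p = 0.0697), and passed without tiamulin 2 (0.0258), with the GC and length offsets (0.0117), with DESeq2 (0.0451) and without a filter on low counts (0.0311). That of Cyp4f13 was 0.39 (0.125 to 0.647, adjusted p = 0.0835) and also passed without tiamulin 2 (0.0105). For Ugt2b34 it was −0.35 (−0.592 to −0.108, adjusted p = 0.0894), which passed without tiamulin 3 (0.0168), with those offsets (0.0160) and without a filter (0.0117). Cyp7b1 stood at −0.30 (−0.705 to 0.115) and Cyp21a1 at −1.19 (−2.09 to −0.291, adjusted p = 0.117). An unadjusted p below 0.05 between the drugs was reached by 7 of the 28 members (25.0%), beside 21.6% of all genes tested. The value of Nr1i3 was 1.09 (−0.104 to 2.28).

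Genes that serve the P450s were listed separately, none of them members. The counts that follow stand beside 13.1% of all genes tested called under lefamulin, 16.4% under tiamulin and 4.9% between the drugs. Of 19 genes for electron transfer and haem supply, all tested, 3 were higher and 1 lower under lefamulin and 5 were higher and 0 lower under tiamulin. Hmox1, which breaks haem down, rose by 0.89 ± 0.0824 under lefamulin (adjusted p = 7.84e-06) and by 1.15 ± 0.0824 under tiamulin (adjusted p = 7.00e-07). Pgrmc1, a haem-binding membrane protein that associates with P450s, rose by 0.37 and 0.33 under lefamulin and tiamulin, and Cyb5b, the cytochrome b5 of the outer mitochondrial membrane, by 0.27 under lefamulin. Fdxr, the reductase of the mitochondrial P450 chain, rose by 0.50 under tiamulin, and Cpox, of haem synthesis, by 0.27. Fech, which inserts iron into haem, was lower under lefamulin by −0.31 ± 0.0628 (adjusted p = 0.00465).

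For conjugation, 10 cofactor genes were tested, with 1 higher and 3 lower under each drug. Ugp2, which makes UDP-glucose, was lower by −0.22 and −0.44 under lefamulin and tiamulin, and Papss2, which makes the sulfate donor, was lower by −0.53 under lefamulin. Papss1, its paralog, was lower by −0.23 and −0.20, and Bpnt1, which clears the product of the used sulfate donor, by −0.21 under tiamulin. Ugdh, which turns UDP-glucose into the glucuronic acid donor, was higher by 0.16 under tiamulin, and Suox by 0.74 under lefamulin. Of 12 other conjugating enzymes 7 were tested, and 2 were higher under each drug, the methyltransferase Nnmt (0.74 and 0.89) and the glutathione transferase Mgst1 (0.86 and 0.81).

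Of 40 other enzymes of drug oxidation, reduction and hydrolysis 24 were tested. Lefamulin had 4 higher and 3 lower and tiamulin 5 higher and 3 lower. Maoa, a monoamine oxidase, rose by 0.64 and 0.78, Adh7, an alcohol dehydrogenase, by 0.99 under tiamulin, while Aox1, aldehyde oxidase, was lower by −0.63 and −0.52 and the flavin monooxygenase Fmo2 by −0.57 and −0.63. Between the drugs 1 of these 24 was called, beside 4.9% of all genes tested. This was Ephx1, microsomal epoxide hydrolase, named after its values were seen. It had 689, 710 and 775 reads in controls, 1101, 1096 and 1031 under lefamulin and 680, 804 and 753 with tiamulin. Ephx1 rose by 0.68 ± 0.0816 on the log2 scale under lefamulin (adjusted p = 7.95e-05), and the value was −0.55 for tiamulin against lefamulin (adjusted p = 0.00191).

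Of 27 regulators and receptor partners 23 were tested. Lefamulin had 2 higher and 6 lower, and tiamulin 1 higher and 3 lower. The hepatocyte transcription factors Onecut1 (−0.94 and −0.68), Cebpa (−0.70 and −0.80) and Nr5a2 (−0.57 and −0.77) were lower under lefamulin and tiamulin, whereas Tef rose by 0.35 and 0.43 and Tiparp, which restrains AHR, by 0.31 under lefamulin. Of 9 listed AHR targets 4 were tested, and under lefamulin Cyp1a1 and Tiparp were higher and Cyp2s1 lower, with Cyp1a1 higher and Cyp2s1 lower under tiamulin. Nqo1 had 31, 34 and 12 reads in controls, 48, 46 and 41 under lefamulin and 42, 41 and 39 with tiamulin. Every treated library had more reads than every control, and the log2(fold change) of 0.91 under lefamulin (adjusted p = 0.0657) and 0.74 under tiamulin (adjusted p = 0.124) did not pass. Of 15 listed CAR and PXR targets 6 were tested. Lefamulin had 1 higher, Abcc3 (0.23), and 1 lower, Aldh1a1 (−0.30), and tiamulin had 2 higher, Gadd45b (0.56) and Alas1 (0.36), and 1 lower, Aldh1a1 (−0.18). Of 15 genes of bile acid and oxysterol synthesis 7 were tested, with 2 higher under lefamulin, Cyp39a1 and Acox2, and 2 higher and 1 lower under tiamulin, all members already described. Acox2 had 4, 3 and 1 reads in controls and 10, 5 and 17 under lefamulin. None of its controls reached the filter's cutoff, so it entered the test only through treated libraries and its call is no independent sign of a change.

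Genes used as markers of other cell types also moved in these libraries, all of a single cell line. In the blood and macrophage list 4 of 6 genes were tested, with Cd68 (0.65 and 1.02 under lefamulin and tiamulin) and Ptprc (2.45 and 2.12) higher and Csf1r (−1.33 and −1.32) lower under each drug, and Adgre1 and Cd3e at 0 in every library. Ptprc had 5, 0 and 3 reads in controls, 12, 15 and 15 under lefamulin and 9, 9 and 16 with tiamulin, and, with no control at the filter's cutoff, it too entered the test only through treated libraries. The blood and macrophage list summed to 7.04 to 7.68 FPKM in controls, 8.61 to 13.7 under lefamulin and 12.0 to 16.5 under tiamulin, most of it Cd68. The 4 endothelial markers summed to at most 0.723 FPKM in any library, and Pecam1, the single one tested, was higher under each drug (1.29 and 1.39). Of the 5 fibroblast markers 3 were tested, with Dcn lower under each drug (−0.42 and −0.49) and Pdgfra under lefamulin (−0.46). Col1a1 (0.79 and 0.43) was not called under either drug, nor was Pdgfra under tiamulin (0.14). The fibroblast list summed to 255 to 269 FPKM in controls, 194 to 203 under lefamulin and 180 to 194 under tiamulin, nearly all of it Dcn. Col1a2 and Col3a1 had at most 2 reads in a library. Of the 4 cholangiocyte markers 3 were tested, and Krt7 was higher under each drug (0.52 and 0.75). Sox9 (0.23 and 0.10) and Epcam (−0.04 and −0.15) were not called. That list summed to 29.6 to 41.0 FPKM across all libraries, most of it Sox9. The part of these movements, and of the lower hepatocyte markers under tiamulin, in the values of the P450 and conjugation genes was not tested.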

How the data were processed

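Total RNA of 9 Hepa1-6 samples was sequenced, 3 per group, and groups were taken from the sample titles. The authors deposited whole, unnormalized counts of reads on each gene and, per gene, FPKM values. The submitters' processing notes name CASAVA 1.8, fastp, HISAT2 2.0.5, featureCounts 1.5.0-p3, DESeq2 1.20.0 and the build mm10, without roles. The annotation, strand setting and treatment of reads with several matches are not given in the sources used here, so genes with overlapping exons or near-identical copies are uncertain. Only 1 of 144 members compared (0.694%) and 2.92% of 52125 genes kept the start and end given by GENCODE M21 on GRCm38. Gene positions are therefore given as deposited, and only the RefSeq promoters are placed on GRCm38.p6. Shared exon bases come from GENCODE M21.

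Counts were scaled by TMM (factors 0.994 to 1.01), filtered with filterByExpr (min.count 10) and tested in edgeR 4.0.16 under R 4.3.3, using robust quasi-likelihood fits of all 9 libraries with group as the only term and Benjamini-Hochberg adjustment over 14510 genes. The procedure was first run on simulated counts. These were drawn independently for each gene and library without a GC trend, so that run cannot speak to the GC deviations. Standard errors and 95% intervals are of log2(fold change), and levels between genes were compared in FPKM only. The 95% intervals include the spread between libraries, and the floor of 3 counts covers counting error only. Of the members, those named are the receptors and Por, every member called, the leader of each family by control FPKM, and the 2 largest changes that did not pass in each comparison. Other members are named for context (well-known liver P450s, other genes of a family, members whose controls did not all reach the cutoff) and were chosen after their values were seen. Of each list's genes that are no members, the 2 highest and 2 lowest changes that passed in each drug comparison are named. The members and lists were chosen with earlier results of these data known. Alternatives were DESeq2 1.42.0, its size factors in edgeR, no filter, at least 10 counts in every library, the 2 groups alone, a block for the replicate number, limma 3.58.1 on log2(FPKM + 1) and log2(FPKM + 0.1) for genes above 1 FPKM in at least 3 libraries, the former also without a filter, and leaving out each library. A fit with GC and gene length offsets was added after seeing the data.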

Additional observations from a re-analysis of the deposited data

Results flagged for a closer look

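Cyp1a1 differed between the drugs by the direct test. It was higher than control under lefamulin and tiamulin, at a mean of 35.8 CPM in controls, 74.1 CPM under lefamulin and 47.8 CPM under tiamulin, and the difference between tiamulin and lefamulin was −0.632 on the log2 scale (edgeR, adjusted p = 0.00107). All 3 tiamulin libraries lay below all 3 lefamulin libraries. The tests for outlying samples need at least 4 samples in a group and were not run on groups of 3.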

How the results depend on the processing

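No called value of the 28 tested members changed direction under the alternatives run. Of values that were not called, 55 changed sign, in 22 of 84 comparisons (among them Por against control under each drug and Ugt2b34 under tiamulin), and none of them then passed. The largest was Nr1i3 under lefamulin, 0.425, which became −0.569 without lefamulin 1. Over all alternatives, 1428 single values stayed on their side of the threshold, 24 newly passed it and 42 no longer passed. Under lefamulin the 6 calls of 28 (21.4%, beside 13.1% of all genes) became 3 of 77 with limma on log2(FPKM + 1) without a filter (3.90%, beside 2.61%), and between 3 and 8 when a library was left out. The 2 members past the fold limit became 1 with at least 10 counts in every library, 0 with limma on log2(FPKM + 1) with or without the filter, 1 with limma on log2(FPKM + 0.1), and 1 to 3 with a library left out. For tiamulin the 9 calls of 28 (32.1%, beside 16.4%) became 4 of 77 with limma without a filter (5.19%, beside 3.88%), 12 of 28 with GC and length offsets (42.9%, beside 27.2%) and 7 to 10 with a library left out. Its 0 members past the fold limit became 1, Cyp2c68, without a filter, with the replicate block, with GC and length offsets and with the 2 groups alone, and 0 to 1 with a library left out. Between the drugs the 1 call of 28 (3.57%, beside 4.9%) became 2 of 20 with DESeq2 (10%, beside 8.82%), 3 of 77 without a filter (3.90%, beside 4.23%), 3 of 28 with GC and length offsets (10.7%, beside 13.3%), and 1 to 3 with a library left out. The cause of these changes was not tested.

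Same-numbered libraries of different groups did not deviate together (correlations −0.425 to 0.0422), so the numbers were not read as pairs. With the replicate block the calls were 5 under lefamulin, 8 under tiamulin and 1 between the drugs, beside 8.99%, 12.5% and 1.81% of all genes, without Cyp39a1 under lefamulin (adjusted p = 0.0744) and Cyp4f16 and Cyp7b1 under tiamulin (0.0826 and 0.0556), and with Cyp2c68 under tiamulin (0.0490). Cyp1a1 under tiamulin was lost only with limma without a filter (adjusted p = 0.0513). Cyp3a13 and Cyp2s1 were called under each drug in every alternative run. At this depth 117 members did not pass the filter, 68 of them without a read. With no filter 77 members were tested, and every member then called was among the 28.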
